A study of Mus musculus with 18 samples.

Results

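The keratin genes Krt80, Krt7, Krt8, Krt18, Krt19, Krt10, Krt14 and Krt5 were described in 12 endothelial libraries and 6 libraries of EO771 tumour cells. The 8 genes were chosen from a list drawn up with earlier results of these libraries known, in which Krt80 stood out by its endothelial fold changes, so every endothelial difference of the 8 is given below as a description with no test. All 8 were found by Ensembl identifier among the 55401 genes of the endothelial table and by symbol among the 22612 lines of the EO771 table. The comparison of 12-HETE with vehicle in EO771 cells was fitted separately and is tested. All gene lists, like the 8 genes, were chosen with earlier results of these data known. The adjusted p values below, for EO771 and for the gene lists, do not allow for that choice.

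The study asked how high endothelial cells, which line the venules through which lymphocytes enter a lymph node, differ from other blood endothelium once a breast tumour has spread to the node. Endothelial cells were sorted from wild-type female C57BL/6 mice as CD45- CD31high cells, and were called HECs when they carried the lymph node addressin PNAd and BECs when they did not. BEC normal cells came from the mammary fat pad, BEC tumour cells from primary EO771 tumours grown in the fat pad, HEC normal cells from the lymph node and HEC tumour cells from lymph node metastases, with 3 libraries each. EO771, a mouse mammary carcinoma cell line of C57BL/6 origin, was cultured with vehicle or with 12-HETE, a lipid made from arachidonic acid, with 3 libraries each. HECs and BECs came from different organs, and fat pad and tumour were digested differently, so cell type and organ cannot be told apart, nor can tumour and digestion. The study describes the 3 libraries of a group as independent experiments, without saying how many mice or cultures stood behind each.

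Keratins are the intermediate filament proteins of epithelia. A filament is built from pairs of a type I and a type II chain, and the pairs mark the kind of epithelium. Krt8 (type II) and Krt18 (type I) are the pair of simple epithelia such as gland ducts, where Krt7 (type II) and Krt19 (type I) are also made. Krt5 (type II) and Krt14 (type I) are the pair of basal cells in the epidermis and of the mammary myoepithelium, and Krt10 (type I) belongs to differentiating epidermis. Krt80 is a type II keratin found in many epithelia, near desmosomes. Endothelium normally relies on vimentin instead.

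On GRCm38 with the GENCODE M21 annotation, 5 of the 8 genes lay on chromosome 15: Krt80 at chr15:101347444-101370162, Krt7 at chr15:101411043-101430313, Krt5 at chr15:101707070-101712898, Krt8 at chr15:101996698-102004482 and Krt18 at chr15:102028180-102032027. The other 3, all type I, lay on chromosome 11, with Krt10 at chr11:99385254-99389364, Krt19 at chr11:100140810-100148665 and Krt14 at chr11:100203162-100207548. Krt8 and Krt18 are neighbours although they belong to different types. The bases before the RefSeq start of these neighbours, which stood apart together in 1 BEC tumour library, and of Krt5, which was level across the same 3 libraries, are shown 5′ to 3′ from the RefSeq promoter table (GRCm38.p6), without any base that GENCODE places in an exon of the gene. Capitals mark the motifs searched on both strands, which were the TATA box letters TATAAA, the variant GATAAA, the loose GC or GT box GGGNGNGG, where N is any base, the Ets core CAGGAAG and the AP-1 site TGANTCA.
Krt8, chr15:102004483-102004592, minus strand: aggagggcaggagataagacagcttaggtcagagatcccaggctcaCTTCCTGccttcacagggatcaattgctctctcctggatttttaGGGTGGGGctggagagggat
Krt18, chr15:102027966-102028179, plus strand: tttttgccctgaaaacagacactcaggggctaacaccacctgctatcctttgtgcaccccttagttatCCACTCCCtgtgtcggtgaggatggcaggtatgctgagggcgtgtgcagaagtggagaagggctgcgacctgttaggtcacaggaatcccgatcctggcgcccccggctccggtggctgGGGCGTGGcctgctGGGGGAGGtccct
Krt5, chr15:101712906-101713155, minus strand: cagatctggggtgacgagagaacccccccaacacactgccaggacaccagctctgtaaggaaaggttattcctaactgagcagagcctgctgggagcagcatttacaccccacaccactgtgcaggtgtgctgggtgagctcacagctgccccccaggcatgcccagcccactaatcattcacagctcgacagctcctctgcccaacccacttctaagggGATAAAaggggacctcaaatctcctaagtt
GGGNGNGG was found in the stretches of both Krt8 and Krt18 and in 45.9% of the 32851 RefSeq windows of 250 bases before a start. CAGGAAG was found for Krt8 (10.8% of all windows) and GATAAA for Krt5 (8.79%), while TATAAA (12.4%) and TGANTCA (6.75%) were in none of the 3 stretches. The shares are over windows of 250 bases, but 140 bases for Krt8 and 36 for Krt18 lay in exon and were left out. Their stretches, of 110 and 214 bases, are thus shorter than the windows, and that of Krt8 lacks the bases nearest the start. Krt7 shared 2 GGGNGNGG matches and 1 CAGGAAG match, all within annotated exon and not printed. The table has no entry for Krt80 or Krt19.

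Levels are given as CPM, the count of a gene scaled to a common library size by the table total of each library. The endothelial totals were 56.4 to 79.4 M, but their values rose in steps of 3.685 to 3.76, so that they stood for 15.04 to 21.1 M units of 1 step, close to the 17.3 to 18.6 M counts of EO771. The floor, 3 steps or 3 counts, was 0.142 to 0.199 CPM in the endothelial libraries and 0.161 to 0.173 CPM in EO771. All 13 endothelial markers were above the floor in each of the 12 endothelial libraries, summing to 2995 to 4287 CPM. Cldn5 was only just above it in some, with 232 to 280 CPM in BEC normal, 0.246 to 0.554 CPM in BEC tumour and 0.213 to 2.01 CPM in HECs. The defining high endothelial gene Glycam1 was at 573 CPM or more in every HEC library and at 0 in every BEC library. But Chst4 was at 0.0596 CPM in HEC normal 2 against 291 and 297 in the other HEC normal libraries. Fut7 was at 220.5 CPM in HEC tumour 3 against 1021 and 1011 in the other HEC tumour libraries. Of the same list of 7 genes, B3gnt3 was at 104 to 174 CPM in HECs and 42.3 to 66.5 CPM in BECs. Others were not higher in HECs. Chst2 was at 18.8 to 22.9 CPM in BEC normal and at 0 in every HEC library. Gcnt1 was at 4.10 to 6.08 CPM in HECs and 4.56 to 7.87 CPM in BECs, and Madcam1 at 0.394 CPM or less in both. The 12 leukocyte markers summed to 697 to 1131 CPM in BEC tumour and to 5.90 to 14.0 CPM in the other endothelial groups, although the sort was CD45-. The sum of the 11 fibroblast and pericyte markers went the other way, at 921 to 937 CPM in BEC normal, of which Acta2 made up 621 to 622. It was 111 to 150 CPM in BEC tumour and 19.1 to 42.8 CPM in the HEC libraries. Not every marker followed the sum, and Dcn was at 2.14 to 3.55 CPM in BEC normal and 3.08 to 10.3 CPM in BEC tumour. The part of these cells in the keratin values was not tested.

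Krt80 was the keratin with the highest level per length among the 8 in every endothelial group except BEC normal. It was at 4.21, 4.73 and 4.93 CPM in BEC normal and at 108, 109 and 110.2 CPM in BEC tumour. It was at 120.5, 122.5 and 116.6 CPM in HEC normal and at 356, 356 and 303 CPM in HEC tumour. The 4 endothelial groups did not overlap, and BEC tumour and HEC normal were neighbours in the order, with a gap between 110.2 and 116.6 CPM. The log2 fold change was 4.52 ± 0.09 (SE, n = 3 per group) for BEC tumour against BEC normal, 4.68 ± 0.09 for HEC normal against BEC normal, 1.42 ± 0.08 for HEC tumour against HEC normal and 1.58 ± 0.08 for HEC tumour against BEC tumour. In these bulk libraries, fewer cells with a transcript and less of it per cell cannot be told apart. BEC tumour was also the group with the least spread, with a coefficient of variation of 0.999% over its 3 libraries. Exons of Krt80 overlapped those of Gm35853 on the other strand by 263 bases, and whether counting used the strand is not given in the sources used here.

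**Figure D1:**
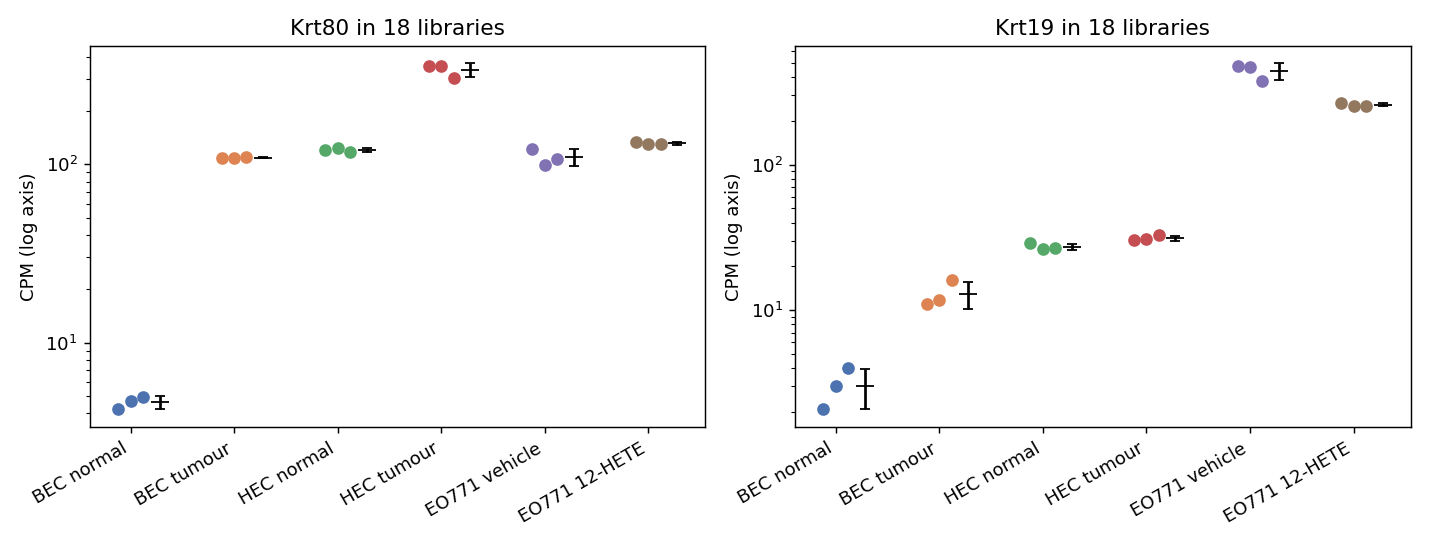
Krt80 (left) and Krt19 (right) in CPM on a log axis, 1 point per library in 6 groups of 3, with the mean and SD beside the points in black. Krt80 lies near 109 CPM in both BEC tumour and EO771 vehicle, while Krt19 is at 10.97 to 16.0 CPM in BEC tumour and at 375 to 479 CPM in EO771 vehicle.

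Krt19 followed the same order among the endothelial groups but at lower levels. It was at 2.09, 2.99 and 3.98 CPM in BEC normal and at 10.97, 11.8 and 16.0 CPM in BEC tumour. It was at 28.8, 26.4 and 26.8 CPM in HEC normal and at 30.2, 30.6 and 32.7 CPM in HEC tumour. No 2 of these groups overlapped, although the HEC groups were close, with a log2 fold change of 0.12 ± 0.21 for HEC tumour against HEC normal. The log2 fold change was 2.05 ± 0.22 for BEC tumour against BEC normal and 3.16 ± 0.22 for HEC normal against BEC normal. Per kilobase of the longest coding transcript, Krt19 led the 8 genes in BEC normal, at 1.92 ± 0.599 CPM per kb (SD, n = 3). Krt18 was at 1.40 ± 0.494 and Krt80 at 1.18 ± 0.0939. Krt18 overlapped both of the others, whereas every Krt19 value lay above every Krt80 value. In BEC tumour Krt80 was at 27.8 ± 0.278 and Krt19 at 8.20 ± 1.72 CPM per kb, and in HEC tumour they were at 86.3 ± 7.72 and 19.8 ± 0.851.

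Krt10 was low in every endothelial group, and highest with tumour. It was at 1.41, 1.96 and 1.46 CPM in BEC normal and at 4.16, 4.18 and 4.88 CPM in BEC tumour. It was at 3.65, 2.52 and 2.85 CPM in HEC normal and at 4.96, 4.42 and 5.0004 CPM in HEC tumour. The tumour groups overlapped each other, and each lay above its normal group in all libraries. The log2 fold change was 1.42 ± 0.21 for BEC tumour against BEC normal and 0.60 ± 0.21 for HEC tumour against HEC normal.

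The simple epithelial keratins Krt8, Krt18 and Krt7 were uneven within BEC tumour. Krt8 was at 0.526, 2.67 and 33.2 CPM in BEC tumour 1, 2 and 3, and at 0.0517, 0.135 and 0.0583 CPM in BEC normal, where each value was at or under the floor. Krt18 was at 1.45, 2.32 and 25.3 CPM in BEC tumour and at 1.27, 2.08 and 2.68 CPM in BEC normal. Krt7 was at 2.27, 2.10 and 17.5 CPM in BEC tumour and at 0.336, 0.743 and 0.306 CPM in BEC normal. For Krt18, BEC tumour 1 and 2 lay within the range of BEC normal, whereas for Krt7 and Krt8 all 3 BEC tumour libraries lay above BEC normal. With all libraries the log2 fold change against BEC normal was 2.23 ± 0.81 for Krt18 and 3.95 ± 0.75 for Krt7. Without BEC tumour 3 it was -0.13 ± 0.49 for Krt18 and 2.21 ± 0.55 for Krt7. For HEC tumour against BEC tumour it was -3.93 ± 0.81 for Krt18 and -3.39 ± 0.74 for Krt7 with all libraries, and -1.57 ± 0.51 and -1.65 ± 0.54 without BEC tumour 3. In the HEC libraries Krt8 did not exceed 0.421 CPM and Krt7 did not exceed 1.22 CPM. Krt18 was at 1.96, 1.22 and 2.62 CPM in HEC normal and at 0.550, 0.503 and 0.925 CPM in HEC tumour, which did not overlap, with a log2 fold change of -1.63 ± 0.82. Of the 50-base stretches of the Krt8 transcript, 26.9% also occur in another gene, chiefly the pseudogene Krt8-ps, so reads of Krt8 could have been split.

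BEC tumour 3 also stood apart in some epithelial genes that are no keratins. The list of 20 epithelial markers summed to 20.3, 18.7 and 46.6 CPM in BEC tumour 1, 2 and 3. Of the 20, 17 were highest in BEC tumour 3, but the share of all genes highest there was not counted. Some of the 17 differed little, such as Grhl2 at 10.5, 10.5 and 10.7 CPM. Others lay under the floor, such as Marveld3 at 0.0553, 0 and 0.104 CPM. The adhesion molecule Epcam was at 0.263, 0.391 and 3.87 CPM, the cadherin Cdh1 at 1.07, 0.983 and 6.004 CPM and the tight junction claudin Cldn4 at 0.886, 0.718 and 8.71 CPM. Over all 18511 genes tested, 18 were over 3 times both other BEC tumour libraries and at 5 CPM or more in BEC tumour 3. Krt7, Krt8, Krt18, Cdh1 and Cldn4 were among the 18, but so were genes outside the epithelial list. The pseudogene Rpl10-ps1 was at 4.58, 4.40 and 74.7 CPM in BEC tumour 1, 2 and 3. H6pd was at 36.7, 40.7 and 145 CPM there, and at 168 to 189 CPM in BEC normal. Of the milk and mammary gland genes, a list added after the values were seen, Csn3 was at 1.87, 1.85 and 3.40 CPM in BEC tumour 1, 2 and 3, and Csn2, Wap and Lalba were at 0 in all 3. Csn3 was at 4.48 to 5.38 CPM in HEC tumour and 60.2 to 106 CPM in EO771, and Wfdc18 was at 0, 0.0882 and 0.880 CPM in BEC tumour 1, 2 and 3. The part of other epithelial cells in these values was not tested.

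Krt14 and Krt5, the basal pair, were absent from every BEC normal library. Krt14 was at 2.46, 2.46 and 5.76 CPM in BEC tumour, at 0 in all BEC normal and HEC tumour libraries, and at 0.0561 CPM in the only HEC normal library with any. Krt5 was at 3.21, 3.18 and 3.47 CPM in BEC tumour and at 0 in the other 9 endothelial libraries. Against the floor of 3 steps per library, BEC tumour was at least 21.6-fold higher than BEC normal for Krt14 and at least 20.0-fold higher for Krt5. Unlike Krt8 and Krt18, Krt5 was level across the 3 BEC tumour libraries, and Krt14 was highest in BEC tumour 3. Of the 14 keratinocyte markers, 11 were above the floor in each BEC tumour library and 5 in each BEC normal library, with sums of 41.6 to 46.2 and 21.7 to 23.1 CPM, while in the HEC libraries 4 or 5 were above it and the sums were 137 to 166 CPM. Sprr1a made up most of each sum, with 12.8 to 15.3 CPM in BEC normal, 26.8 to 28.1 in BEC tumour and 105 to 156 in the HEC libraries. The basal regulator Trp63 was at 0.456, 0.403 and 0.104 CPM in BEC tumour. The part of epidermal cells in these values was not tested.

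**Figure D2:**
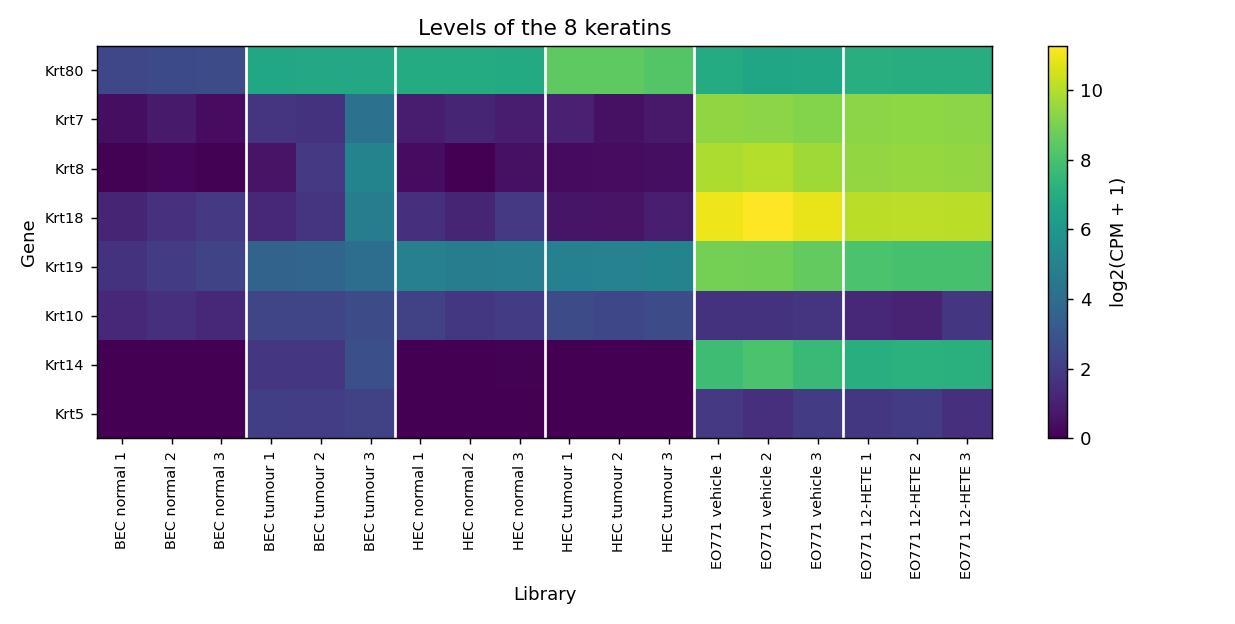
Levels of the 8 keratins, as log2(CPM + 1) by colour, with genes in rows and the 18 libraries in columns (white lines divide the 6 groups). Krt7, Krt8 and Krt18 are brighter in BEC tumour 3 (17.5, 33.2 and 25.3 CPM) than in BEC tumour 1 and 2, and Krt5 and Krt14 are at 0 in BEC normal.

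Counted over 2-fold in the fit, and leaving out genes at or under the floor in both groups, 8 of 8 members were higher in BEC tumour than in BEC normal, beside 15.5% higher and 13.5% lower of all genes tested. Between HEC normal and BEC normal 4 members were higher (Krt80, Krt19, Krt7 and Krt8, the last under the floor in BEC normal) and 0 lower of the 6 with a fold, beside 19.6% and 17.3%. Between HEC tumour and HEC normal 1 was higher (Krt80) and 1 lower (Krt18) of 6, beside 8.86% and 4.47%. Between HEC tumour and BEC tumour 2 were higher (Krt80 and Krt19) and 5 lower (Krt7, Krt8, Krt18, Krt14 and Krt5), beside 15% and 13%. These counts describe genes chosen from such values, the comparisons share groups, and nothing is read from them.

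EO771 cells carried the keratins of a simple epithelium with some Krt14. In vehicle, Krt18 led per length at 1468 ± 214 CPM per kb (SD, n = 3), before Krt8 at 470 ± 60.4, Krt19 at 279 ± 36.2, Krt7 at 151 ± 10.99, Krt14 at 133 ± 24.7 and Krt80 at 27.9 ± 3.01, while Krt5 and Krt10 were at 1.17 ± 0.260 and 1.05 ± 0.0691. Krt7 and Krt14 did not differ beyond their spread, nor did Krt5 and Krt10. The 8 members summed to 3909 to 4947 CPM in vehicle, against 133, 138 and 216 CPM in BEC tumour 1, 2 and 3. Epcam was at 18.5 ± 5.50 CPM and Cldn3 at 293 ± 24.3 CPM in vehicle, and the 13 endothelial markers summed to 94.5 to 130 CPM.

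Set beside EO771, the BEC tumour levels fell into 3 kinds. Krt80 was at 98.7%, 99.5% and 100.7% of the EO771 vehicle mean in BEC tumour 1, 2 and 3. Krt10 (188.9%, 189.8% and 221%) and Krt5 (125%, 124% and 135%) were low in both, at 2.20 ± 0.145 and 2.56 ± 0.571 CPM in EO771 vehicle. The other 5 were at a few percent or less: Krt19 at 2.49%, 2.67% and 3.64%, Krt14 at 1.09%, 1.09% and 2.55%, Krt7 at 0.367%, 0.340% and 2.83%, Krt8 at 0.0572%, 0.291% and 3.61%, and Krt18 at 0.0689%, 0.110% and 1.20%. The tables are separate experiments prepared separately, so these are values side by side with no test. HEC tumour, at 303 to 356 CPM, was above every EO771 library for Krt80, the highest of which was at 133.7 CPM.

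To read these percentages, other genes were taken that were at 100 CPM or more in all 6 EO771 libraries and at 0.5 CPM or less in all 3 BEC normal libraries. The 12 such genes had a median BEC tumour level of 0.0352%, 0.0801% and 0.0640% of EO771 vehicle in BEC tumour 1, 2 and 3, and no gene exceeded 1.91%. By EO771 level the first were the retinol transporter Stra6, albumin (Alb), the desmosomal plaque protein Dsp, the trefoil peptide Tff2 and the tetraspanin Tspan8. Stra6 was at 837 CPM in EO771 vehicle and at 0, 0.151 and 0 CPM in BEC tumour, and Dsp was at 304 CPM and at 2.12, 3.10 and 2.01 CPM. Among the members, Krt8 and Krt14 met the same rule. Krt80, whose level in BEC normal was 4.62 ± 0.368 CPM, did not.

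The ratio of Krt18 to Krt8 was 0.762 in BEC tumour 3 and 2.14, 2.39 and 2.35 in the EO771 vehicle libraries, and 1.57 to 1.59 with 12-HETE. It was 2.76 in BEC tumour 1 and 0.868 in BEC tumour 2. The ratio of Krt7 to Krt8 was 0.528 in BEC tumour 3 and 0.606 to 0.721 in EO771 vehicle. Of the 17 epithelial markers highest in BEC tumour 3, 10 were above their EO771 vehicle mean there, and the share of all genes was not counted. Some of the 10 were low in both, such as Ovol1 at 0.349 CPM against 0.0921 CPM and Rab25 at 0.673 CPM against 0.310 CPM. Cdh1 was at 6.004 CPM in BEC tumour 3 and 2.37 ± 0.910 CPM in EO771 vehicle and Cldn4 at 8.71 and 6.27 ± 1.35 CPM. Krt17, a keratin outside that list, was at 9.57 and 0.240 ± 0.0800 CPM. Epcam and Cldn3 were lower in BEC tumour 3, at 3.87 and 1.80 CPM.

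**Figure D3:**
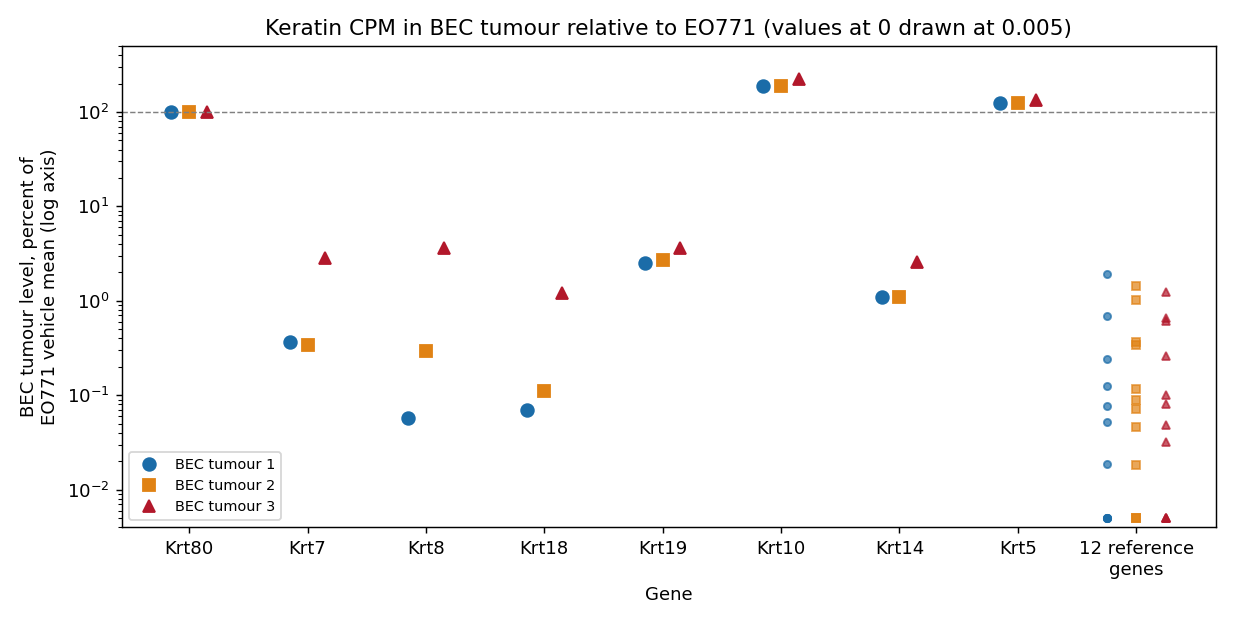
BEC tumour level of each keratin in percent of the EO771 vehicle mean, on a log axis with 1 symbol per BEC tumour library, and the same for the 12 reference genes at the right (values at 0 drawn at the lower edge). Krt80 sits at 98.7 to 100.7%, and Krt7, Krt8 and Krt18 are higher in BEC tumour 3 than in the other 2 libraries.

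In EO771 cells given 12-HETE, 4 keratins were lower and 1 was higher at an adjusted p under 0.05 (DESeq2 Wald test with Benjamini-Hochberg adjustment over 11602 genes), but 0 of 8 passed the limit of 2-fold in either direction. Krt18 was at 2009, 2455 and 1866 CPM in vehicle and at 1091, 1118 and 1084 CPM with 12-HETE, with no overlap. Its log2 fold change was -0.91 ± 0.12 (SE, n = 3 per group; DESeq2 adjusted p = 3.36e-13). Krt19 was at 479, 466 and 375 CPM in vehicle and at 265, 254 and 254 CPM with 12-HETE, a log2 fold change of -0.74 ± 0.12 (DESeq2 adjusted p = 8.15e-09). Krt14 was at 217, 272 and 189.7 CPM and at 133, 145 and 140.2 CPM, a log2 fold change of -0.66 ± 0.14 (DESeq2 adjusted p = 2.11e-05). Krt8 was at 937, 1028 and 794 CPM and at 696, 703 and 688 CPM, a log2 fold change of -0.37 ± 0.11 (DESeq2 adjusted p = 0.00413). All 4, picked here by their adjusted p, were lower in every 12-HETE library than in every vehicle library. The share of all genes so separated was not counted, so nothing is read from this.

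Krt80 went the other way, at 122, 98.7 and 107.7 CPM in vehicle and at 133.7, 129.4 and 129.2 CPM with 12-HETE. Its log2 fold change was 0.29 ± 0.11 (DESeq2 adjusted p = 0.0238), and leaving out any 1 of the 12-HETE libraries gave adjusted p of 0.102 to 0.130. Krt7 was at 662, 623 and 572 CPM and at 633.7, 653 and 637 CPM, which overlapped (log2 fold change 0.08 ± 0.09, DESeq2 adjusted p = 0.463). Krt10 and Krt5, both near 2 CPM, had log2 fold changes of -0.39 ± 0.39 and -0.01 ± 0.33 (DESeq2 adjusted p = 0.420 and 0.980). Of all genes tested, 22.7% were higher and 24.2% lower at an adjusted p under 0.05, and 2.38% higher and 7.79% lower when a 2-fold limit was added. edgeR's quasi-likelihood test likewise gave 1 member higher and 4 lower by adjusted p and 0 past 2-fold, and the same numbers held at an unadjusted p under 0.05. The coefficient of variation of Krt18 was 14.6% in vehicle and 1.65% with 12-HETE, while that of Krt10 was 6.56% and 42.5%.

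**Figure D4:**
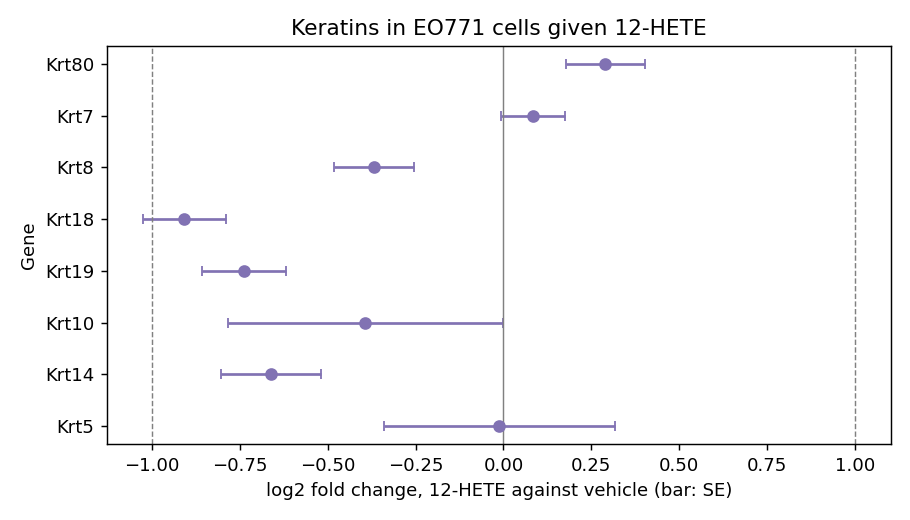
Log2 fold change of each keratin in EO771 cells, 12-HETE against vehicle, with the SE as bars and dashed lines at 2-fold. Krt18, Krt19, Krt14 and Krt8 lie left of 0, Krt80 right of it, and all lie inside the 2-fold lines.

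Beyond these 8, the annotation holds 45 keratin genes, all present in both tables. Of the 19 with enough counts in the endothelial fit, 10 were called higher and 2 lower with BEC tumour set against BEC normal (adjusted p under 0.05 and over 2-fold), beside 12.4% and 10.8% of all 18511 genes tested. The median log2 fold change of the 19 was 6.78, or 2.16 with the 10 genes at 0 in 1 group placed at their bound, against 0.01 over all genes. The filter was a mean over all endothelial libraries, so some of the 19 passed it through BEC tumour alone, where they were high. Krt25, Krt71 and Krt77, for instance, were at 0 in every other endothelial library. The count and the median are partly set by this filter, and nothing is read from them. The count depends on the scale of the values: with values divided by their step, 7 of the 45 passed the filter, and 3 were called higher (Krt16, Krt17 and Krt77) and 2 lower (Krt13 and Krt20). Leaving out BEC tumour 1 or BEC tumour 2 gave 6 called higher, with 12 genes tested.

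Krt20, a type I keratin of gut and urothelium and the highest other keratin in both tables, was at 10.4, 8.93 and 9.53 CPM in BEC normal and at 0.291, 0.983 and 0.686 CPM in BEC tumour. It fell by 3.92 ± 0.26 on the log2 scale (DESeq2 adjusted p = 9.24e-49). It was at 30.1 to 37.8 CPM in HEC normal, at 28.3 to 33.4 CPM in HEC tumour and at 99.2 to 131 CPM in EO771, where its log2 fold change with 12-HETE was 0.18 ± 0.12 (DESeq2 adjusted p = 0.213). Krt20, unlike Krt80, was thus far lower in each BEC tumour library than in EO771. Krt13, of stratified inner linings, was at 4.92, 5.32 and 4.39 CPM in BEC normal and at 0.304, 0.806 and 0.919 CPM in BEC tumour, and fell by 2.89 ± 0.55 on the log2 scale (DESeq2 adjusted p = 6.25e-07). The fibroblast and pericyte markers were also lower in BEC tumour by their sum, though Dcn and Lum were not. The part of these cells in the falls of Krt20 and Krt13 was not tested. Krt17, of basal and appendage epithelium, was at 0.194, 0.473 and 0.175 CPM in BEC normal and at 1.99, 4.17 and 9.57 CPM in BEC tumour, and rose by 4.19 ± 0.60 (DESeq2 adjusted p = 2.28e-11). Krt16 rose by 1.82 ± 0.42 from 0.208 CPM, and 37.6% of its 50-base stretches are shared with other genes. Krt77, an epidermal keratin, was at 2.601, 1.89 and 3.49 CPM in BEC tumour and at 0 in the other endothelial libraries.

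BEC tumour 1 and 2 held keratins that BEC tumour 3 lacked. In all, 13 of the 45 were above the floor in both and at or under it in BEC tumour 3 and in BEC normal. The share of all genes under this rule was not counted. Some of the 13 were not far above the floor, such as Krt6a at 0.194 and 0.428 CPM in BEC tumour 1 and 2. Chosen so, the 13 summed to 13.4, 21.6 and 0.0776 CPM in BEC tumour 1, 2 and 3. By a different rule, over 3 times BEC tumour 3 in both BEC tumour 1 and 2 and at 1 CPM or more there, 63 of all genes tested stood apart. Of these, 4 were keratins. The collagen Col1a1 was among the 63, at 10.8, 11.1 and 2.68 CPM, and the leukocyte markers summed to 1131, 1032 and 697 CPM in the same libraries. Krt71, of the inner root sheath, was at 2.91, 6.15 and 0 CPM and Krt25 at 2.95, 4.98 and 0 CPM. Trichohyalin (Tchh), from a hair follicle list added after the values were seen, was at 4.65, 4.70 and 0.530 CPM, and that list of 7 genes summed to 10.3, 11.8 and 5.74 CPM, and to 8.64 to 18.2 CPM in the HEC libraries. Another 6 keratins were above the floor in all 3 BEC tumour libraries and at or under it in BEC normal (Krt1, Krt15, Krt24, Krt77, Krt79 and Krt83). None was above it in BEC tumour 3 alone. For these counts too the share of all genes was not counted. The part of skin in these values was not tested.

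**Figure D5:**
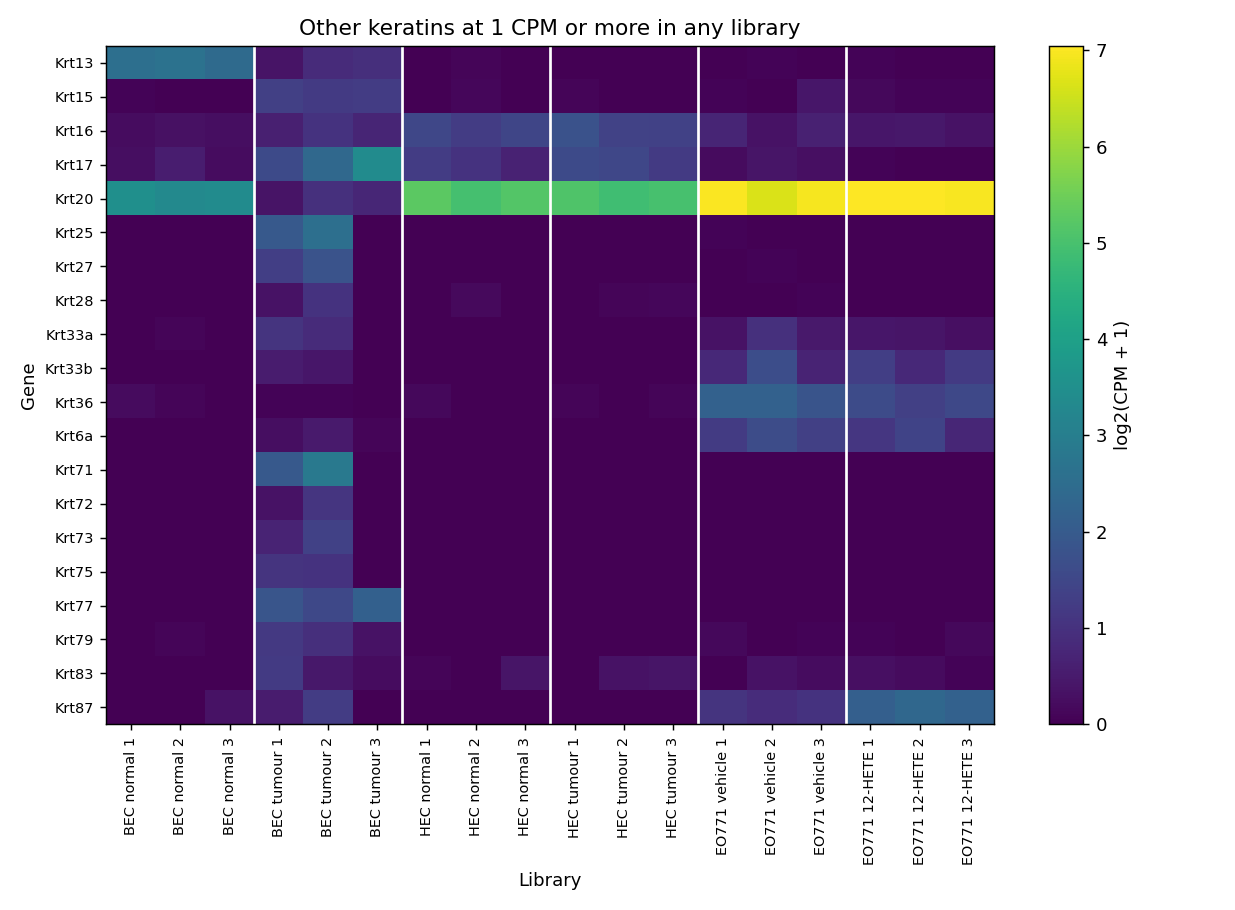
The 20 other keratins that reached 1 CPM in any library, as log2(CPM + 1) by colour, with genes in rows and the 18 libraries in columns. Krt25 and Krt71 show in BEC tumour 1 and 2 and are at 0 in BEC tumour 3, and Krt20 is high in EO771 (99.2 to 131 CPM) and low in BEC tumour.

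In the other endothelial comparisons, 5 of the 19 were called higher and 2 lower in HEC normal than in BEC normal, beside 17.1% and 15.1% of all genes, and 3 and 1 of 7 with values divided by their step, with 1 lower also when any 1 BEC normal library was left out. Between HEC tumour and BEC tumour 2 were called higher (Krt16 and Krt20) and 9 lower, beside 11.2% and 10.7%, and 2 and 3 with values divided by their step, with 5 lower without BEC tumour 1. Here too some of the lower genes had passed the filter through BEC tumour alone, and nothing is read from their number. Between HEC tumour and HEC normal 0 were called in either direction by DESeq2 or by edgeR, and 0 reached an unadjusted p under 0.05, beside 4.58% and 3.21% of all genes called. In EO771, 6 of the 45 were tested. Krt87, a hair keratin, was called higher with 12-HETE, from 1.00 to 3.68 CPM (log2 fold change 1.91 ± 0.33, DESeq2 adjusted p = 7.71e-08), and 36.9% of its 50-base stretches are shared with other genes. None was called lower by DESeq2 or edgeR, but Krt36, at 3.22 CPM in vehicle and 1.81 CPM with 12-HETE, was lower by adjusted p without the 2-fold limit (log2 fold change -0.80 ± 0.32, DESeq2 adjusted p = 0.0265), the only one also at an unadjusted p under 0.05. The others among the highest in EO771, Krt6a, Krt33b and Krt88, were at 2.16 CPM or less in every EO771 library.

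Keratin filaments are tied to the cell surface through desmosomes and hemidesmosomes. Of 17 genes tested of 19 in that list, 3 were called higher (Dsc3, Dsg3 and Dsp) and 3 lower (Itgb4, Itga6 and Pkp2) in BEC tumour set against BEC normal, beside 12.4% and 10.8% of all genes, with a median log2 fold change of 0.52 against 0.01. The desmosomal cadherins Dsc3 and Dsg3 went from 0 to 0.649 and 0.229 CPM and were no longer called with values divided by their step, where 13 of the list were tested. Dsp rose from 0.218 to 2.41 CPM, and the hemidesmosome integrin Itgb4 fell from 38.4 to 1.77 CPM (log2 fold change -4.48 ± 1.26, DESeq2 adjusted p = 0.00105). The plakins that bind filaments in many cells, Plec and Dst, were at 625 and 227 CPM in BEC tumour, with log2 fold changes of 0.14 ± 0.07 and 0.18 ± 0.21.

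Of the other intermediate filament genes, 14 of 16 were tested, and 0 were called higher and 1 lower in BEC tumour (Prph, from 1.59 to 0.228 CPM), with 0 higher by edgeR, beside the same 12.4% and 10.8%. By adjusted p without the 2-fold limit, and named after their values were seen, the neurofilament Nefl was higher (50.9 to 96.5 CPM, log2 fold change 0.88 ± 0.06, DESeq2 adjusted p = 2.42e-52), nestin (Nes) was lower (-0.96 ± 0.05, DESeq2 adjusted p = 1.60e-73) and so was lamin A/C (Lmna, -0.43 ± 0.08, DESeq2 adjusted p = 1.71e-06). At an unadjusted p under 0.05, 1 was higher. Vimentin (Vim) was at 2518 CPM in BEC normal and 2329 CPM in BEC tumour, a log2 fold change of -0.16 ± 0.09 (DESeq2 adjusted p = 0.121). Of the 20 epithelial genes, 14 were tested, 3 were called higher, Cdh1 and Grhl2 among them, and 2 lower (Esrp2 and Spint1), beside 12.4% and 10.8% of all genes, the lower calls being lost by edgeR and without any 1 BEC library other than BEC tumour 3. Cldn4 and Cldn7 got no adjusted p from DESeq2. Grhl2, a transcription factor of epithelia, was at 10.5, 10.5 and 10.7 CPM in BEC tumour and at 0.362, 0.506 and 0.335 CPM in BEC normal, and rose by 4.70 ± 0.21 on the log2 scale (DESeq2 adjusted p = 2.32e-111). Unlike Epcam and Cdh1, it was level across the BEC tumour libraries, and it was at 10.4 to 14.5 CPM in the HEC libraries.

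With 12-HETE in EO771 cells, 1 desmosome gene of 14 tested was called lower (Pkp3, from 22.8 to 9.49 CPM), 1 other filament gene of 8 (Bfsp1, from 3.05 to 1.08 CPM) and 4 epithelial genes of 11. Of all genes, 7.79% were called lower. None of the 3 lists held a gene called higher by DESeq2 or edgeR, beside 2.38% of all genes. By adjusted p without the 2-fold limit, and named after their values were seen, 4 genes were higher: the desmosome genes Ppl (log2 fold change 0.58 ± 0.19, DESeq2 adjusted p = 0.00623) and Dsc2 (0.46 ± 0.16, DESeq2 adjusted p = 0.00873), and the lamins Lmnb1 (0.83 ± 0.13, DESeq2 adjusted p = 4.63e-09) and Lmnb2 (0.62 ± 0.24, DESeq2 adjusted p = 0.0242). Of all genes, 22.7% were higher and 24.2% lower at this limit. More genes of these lists were lower than higher, among them Itgb4 (-0.57 ± 0.15, DESeq2 adjusted p = 0.000824) and Cldn3 (-0.60 ± 0.10, DESeq2 adjusted p = 6.47e-08). At an unadjusted p under 0.05 the desmosome, other filament and epithelial lists held 2, 2 and 0 genes higher and 5, 4 and 6 lower. The 4 epithelial genes called lower past 2-fold were Grhl2, Cldn4, Prss8 and Cdh1. Grhl2 was at 19.99 CPM in vehicle and 1.61 CPM with 12-HETE, and fell by 3.60 ± 0.26 (log2) (DESeq2 adjusted p = 4.70e-43). Cldn4 fell by 2.48 ± 0.31, Prss8 by 2.43 ± 0.52 and Cdh1 by 1.95 ± 0.56. The median log2 fold change of the epithelial list was -0.60, against 0.00 over all genes.

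Over the 12 endothelial libraries, the genes whose log2(CPM + 1) was most like that of Krt80 were Gm9732, Fgf16, Zfp978, Itpripl2 and Mall, with Pearson r of 0.994 to 0.996 (n = 12 libraries in 4 groups, a description). Itpripl2 was at 362 CPM in BEC normal and at 1042, 1144 and 1490 CPM in BEC tumour, HEC normal and HEC tumour, and Fgf16 was at 0.0225, 7.79, 6.72 and 14.1 CPM. The likest to Krt19 were Gfra1, Gm9493 and AV356131 (r of 0.990 to 0.995), and to Krt10 Acp1, Hspa14 and Cpox (r of 0.973 to 0.976). Cdh1 and Epcam were among the likest to Krt7 (r of 0.969 and 0.955) and to Krt8 (r of 0.960 and 0.965), and Krt18 had Epcam, Gm45233 and Amy2a3 (r of 0.913 to 0.929). Among the members, Krt80 went with Krt19 (r = 0.95) and Krt10 (r = 0.90), Krt7 with Krt8 (r = 0.95) and Krt14 with Krt5 (r = 0.98), while Krt80 and Krt18 had r = -0.14. These values rest on the differences between groups and, for Krt7, Krt8 and Krt18, on BEC tumour 3.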

How the data were processed

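RNA-seq of 12 endothelial and 6 EO771 libraries was used. The authors aligned reads with STAR to GRCm38, counted them per gene with featureCounts and deposited 2 tables. The deposited EO771 table holds raw counts per gene. The deposited endothelial table holds whole numbers in steps of about 3.705 per library, treated here as estimated counts. Labels and methods name different library kits, and strand use is not given in the sources used here. The keratins and all gene lists were chosen with earlier results of these data known. Genes named beside the members were those highest in CPM, with the largest fold change among the called, or likest in pattern, less results not reported here. CPM used the table total.

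Fold changes came from DESeq2 1.42.0 (R 4.3.3), with group as the factor, for genes with a mean of 10 or more, called at an adjusted p under 0.05 and over 2-fold. Scripts ran in Python with numpy and pandas and were tested on simulated data. edgeR 4.0.16, other normalisations, filters and left-out libraries were alternatives. Symbols came from a name table, in which 260 endothelial identifiers had no symbol, and 33 EO771 symbols stood on more than 1 line. With 15.04 to 21.1 M steps or counts per library, the floor of 3 was 0.142 to 0.199 CPM, which covers counting error only.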

Additional observations from a re-analysis of the deposited data

How the results depend on the processing

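The counts of the 8 keratins over 2-fold between endothelial groups were within 1.5 times under all alternatives run. Those called in EO771 were 0 throughout, which says nothing of stability, and Krt80 there lost its adjusted p under 0.05 without any 1 of the 12-HETE libraries (0.102 to 0.130). Of the single keratin values, 206 of 208 single keratin values kept their call or, where untested, moved by less than 1 SE under settings other than leaving out a library, and with 1 library left out 206 did so, 9 moved further and 1 reversed. Leaving out BEC tumour 3 turned Krt18 in BEC tumour against BEC normal from 2.23 to -0.13 (log2), the range without 1 library being -0.13 to 2.74. Whether the replicate numbers pair the samples is not settled. Same-numbered libraries of different groups had small correlations of deviations, -0.0153 to 0.0530 (endothelial) and 0.0254 to 0.154 (EO771). Yet 9 of 12 and 5 of 6 libraries correlated best with a library of their own number. The replicate block moved the genes called in BEC tumour against BEC normal from 4304 to 4240, the epithelial genes called there to 5 higher and 0 lower, and no other count here by over 1.5 times.

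With values divided by their step, the other keratins called were 3 higher and 1 lower (HEC normal against BEC normal), 3 higher (BEC tumour against BEC normal) and 3 lower (HEC tumour against BEC tumour), and 1 desmosome gene was called higher in BEC tumour, since fewer genes passed the filter. Tested against a log2 fold change of 1, the other keratins called were 3 higher in HEC normal, 5 higher in BEC tumour against BEC normal, 1 higher and 4 lower in HEC tumour against BEC tumour and 0 higher with 12-HETE, and 0 desmosome, 0 other filament and 2 epithelial genes were lower with 12-HETE, with 0 epithelial genes lower in BEC tumour. No filter gave 5 epithelial genes higher in BEC tumour, and edgeR 0 lower.

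Leaving out 1 library at a time gave 1 to 2 other keratins lower in HEC normal against BEC normal, 6 to 12 higher in BEC tumour against BEC normal and 5 to 11 lower in HEC tumour against BEC tumour. It gave 1 to 2 other filament genes lower in BEC tumour and 1 to 2 with 12-HETE, and 0 to 2 epithelial genes lower in BEC tumour.

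The BEC tumour mean in percent of EO771 vehicle was 99.6% for Krt80, 101% without mitochondrial genes in the total, 107% with TMM effective library sizes, 83.4% of the 12-HETE mean, and 94.9% to 106% without 1 library. Against 12-HETE it was 5.01% for Krt19, 269% for Krt10 and 2.55% for Krt14. For Krt5 it was 128%, 138% with TMM, and 114% to 142% without 1 library. The causes were not tested. Depth limits keratins under about 0.2 CPM.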
